A study of Nicotiana tabacum with 9 samples.

Results

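In pollen of *ATG5*-silenced tobacco, 7 annotated genes were detected in every library while they stood at or near 0 in all pollen of the wild type (WT) and of *ATG2*-silenced plants. The 7 genes were chosen from these values: at most 0.1 FPKM in each of the 3 WT and 3 *ATG2*-silenced libraries and at least 0.5 FPKM in each of the 3 *ATG5*-silenced libraries. FPKM is the number of sequenced fragments of a gene, scaled to its length and to all mapped fragments of the library, and the authors deposited it for each gene and library. The 7 are part of 69099 annotated genes, a share of 0.0101%, and of 76785 gene identifiers in all, the others being transcripts outside the annotation. Since the limits fixed how these genes differ between genotypes, their levels are described here without a test.

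RNA-seq was done on bicellular pollen of WT tobacco (*Nicotiana tabacum* cv. Petite Havana SR1) and of *ATG2* RNAi and *ATG5* RNAi plants, with 3 libraries of each genotype and no treatment beyond the silencing. WT plants are the common control of both silenced genotypes, all plants grew in a glasshouse under the same stated light and temperature, and the study gives the replicates as biological and independent. The number of transformed lines behind each silenced genotype and the promoter of the silencing construct are not given in the sources used here. *ATG5*, the silenced gene itself (GeneID:107810645), stood at 0.18, 0.23 and 0.10 FPKM in the *ATG5*-silenced libraries and at 1.04, 1.5 and 1.6 FPKM in WT, so that these groups did not overlap, and at 1.3, 1.8 and 1.5 FPKM in *ATG2*-silenced pollen. *ATG2* (GeneID:107801867) stood at 0.2, 0.3 and 0.2 FPKM in *ATG2*-silenced pollen, 1.18, 1.04 and 0.9 FPKM in WT and 0.65, 0.58 and 0.57 FPKM in *ATG5*-silenced pollen, so it was lowest where it was silenced. As deposited, its *ATG5*-silenced values also lay below those of WT without overlap. In the fit described below, this log2 change was -0.27 after scaling (limma, adjusted p = 0.149) and -0.48 with FPKM as deposited (limma, adjusted p = 0.0139).

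Autophagy is the process by which a cell encloses parts of its own cytoplasm in double membranes and breaks them down in the vacuole. ATG5 belongs to the conjugation system that couples ATG12 to ATG5, which is needed for the enclosing membrane to form, whereas ATG2 acts with the ATG9 system that supplies membrane. A pollen grain is the small male gametophyte of the plant, and in tobacco it is shed with a vegetative and a generative cell.

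None of the 7 genes had a gene name. A table of tobacco genes from RefSeq (assembly ASM71507v2 of cultivar K326) held an entry for 4 of them, each with a LOC number as its symbol. GeneID:107827937, GeneID:107777658 and GeneID:107804933 were entered as protein-coding genes and GeneID:107771051 as a long non-coding RNA (lncRNA). No entry was found for GeneID:107825910, GeneID:107759714 and GeneID:107766572. Of all annotated genes in the deposited tables, 78.1% had an entry, as did 87.5% of those that reached 0.5 FPKM in 3 or more libraries. Among entries of that second group, 90.8% were protein-coding and 7.97% lncRNA. No role is given for any of the 7, because neither the tables nor the study names their products.

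The 7 genes fell into genes that were listed at 0 in all 6 WT and *ATG2*-silenced libraries, which were 4, and genes with traces in some of these libraries, which were 3. Of the first kind, GeneID:107825910 had the highest level. It was listed at 0 in each of the 6 libraries and stood at 11.03, 10.92 and 10.51 FPKM in *ATG5*-silenced replicates 1, 2 and 3, a mean of 10.8 ± 0.274 FPKM (SD, n = 3 libraries). Its lowest *ATG5*-silenced library was thus above the highest library of each of the other 6 genes. By this mean it ranked 4438 among all annotated genes in *ATG5*-silenced pollen, where 27131 annotated genes were above 0 FPKM in each library.

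GeneID:107759714 was also listed at 0 in all 6 other libraries. It stood at 2.48, 9.89 and 6.32 FPKM in the *ATG5*-silenced libraries, a mean of 6.23 ± 3.71 FPKM (SD, n = 3 libraries). This second most abundant of the 7 genes was far less even than the first, with replicate 2 at 3.99 times the level of replicate 1.

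GeneID:107804933, a protein-coding gene, was listed at 0 in the 6 other libraries and stood at 1.53, 1.64 and 1.72 FPKM in *ATG5*-silenced pollen (mean 1.63 ± 0.0954, SD, n = 3 libraries). GeneID:107766572 was likewise listed at 0 in the 6 other libraries and stood at 1.60, 1.80 and 1.45 FPKM (mean 1.62 ± 0.176, SD, n = 3 libraries). Both were weakly transcribed but nearly equal in the 3 *ATG5*-silenced libraries.

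The 3 genes with traces outside *ATG5*-silenced pollen each reached the limit of 0.1 FPKM. GeneID:107827937, a protein-coding gene, stood at 0.10, 0 and 0.1 FPKM in WT and at 0, 0.1 and 0 FPKM in *ATG2*-silenced pollen, against 0.63, 2.68 and 2.29 FPKM in *ATG5*-silenced pollen (mean 1.87 ± 1.09, SD, n = 3 libraries). *ATG5*-silenced replicate 1 was the low library, and it lay closest of all 7 genes to the limit of 0.5 FPKM.

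The lncRNA gene GeneID:107771051 stood at 0, 0 and 0.1 FPKM in WT and at 0.1, 0.1 and 0 FPKM in *ATG2*-silenced pollen. In *ATG5*-silenced pollen it stood at 0.82, 1.92 and 2.78 FPKM (mean 1.84 ± 0.982, SD, n = 3 libraries), with replicate 1 again the lowest.

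GeneID:107777658, a protein-coding gene, stood at 0, 0.05 and 0.1 FPKM in WT and at 0.1, 0 and 0 FPKM in *ATG2*-silenced pollen. Its *ATG5*-silenced values were 2.97, 0.72 and 1.69 FPKM (mean 1.79 ± 1.13, SD, n = 3 libraries). Here replicate 1 was the highest and replicate 2 the lowest, so the uneven genes did not share 1 low library.

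**Figure D1:**
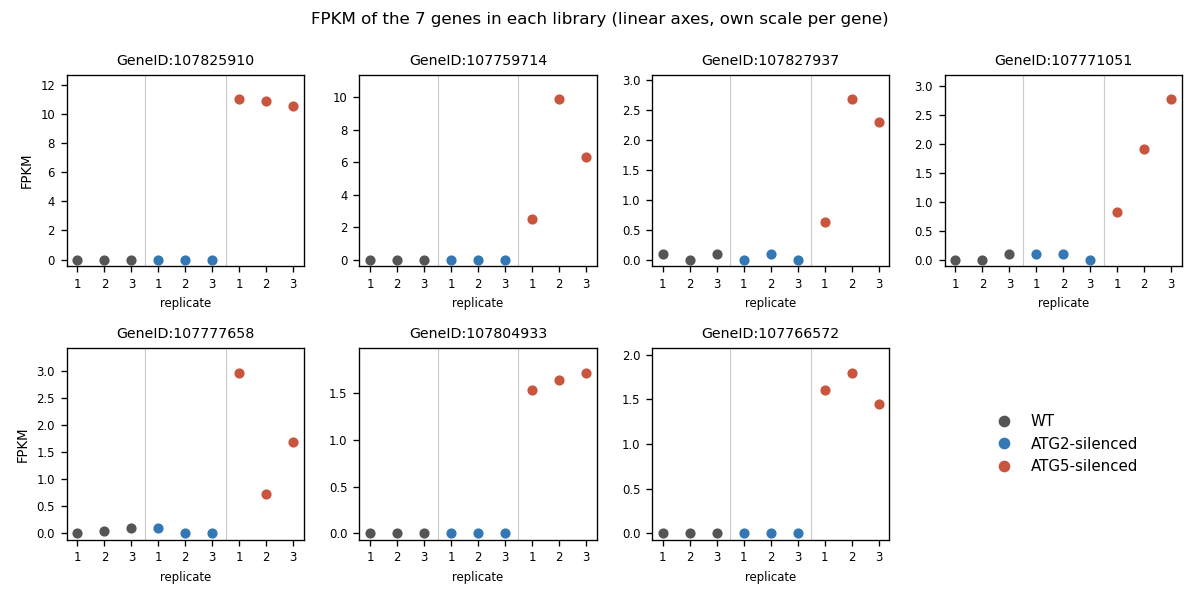
FPKM as deposited (linear vertical axis, own scale for each gene) of the 7 genes in the 9 libraries, with 1 point per library and replicates 1 to 3 of each genotype from left to right, coloured by genotype. GeneID:107825910 stands between 10.51 and 11.03 FPKM in ATG5-silenced pollen, while GeneID:107759714 ranges from 2.48 to 9.89 FPKM there.

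Summed over the 7 genes, the *ATG5*-silenced libraries held 21.1, 29.6 and 26.8 FPKM, the WT libraries 0.1, 0.05 and 0.3 FPKM and the *ATG2*-silenced libraries 0.2, 0.2 and 0 FPKM. Of the total FPKM of an *ATG5*-silenced library, the 7 genes made up at most 0.00326%. Because these are whole pollen samples, transcription in few grains or cells at a high level and in all at a low level cannot be told apart.

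The tables do not carry the same precision. Values were given to 1 decimal for *ATG2*-silenced pollen and for replicate 3 of the WT. The other 5 libraries, among them all of *ATG5*-silenced pollen, had 2 decimals. Levels under 0.05 FPKM thus appear as 0 in 4 of the 6 libraries below the limit. In these 4, a listed 0.1 FPKM can stand for a level slightly above the limit of 0.1 FPKM. Each of the 3 genes with traces held such a value, so whether their unrounded levels met the limit cannot be told. WT replicates 1 and 2, with 2 decimals, held 0 for 5 of the 7 genes. The exceptions were GeneID:107827937 at 0.10 FPKM in WT replicate 1 and GeneID:107777658 at 0.05 FPKM in WT replicate 2. A listed 0 does not always mirror the replicates: between 6 and 22 annotated genes per library were listed at 0 while both other libraries of the genotype held at least 1 FPKM, which is 0.0464% to 0.149% of the genes at that level in both. The study states a minimum number of read pairs for all libraries, but the reads behind a listed 0 cannot be derived from FPKM alone.

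The spread between the *ATG5*-silenced libraries separated the 7 genes into even and uneven ones. As a measure of spread, the highest of the 3 *ATG5*-silenced values was divided by the lowest. The 3 even genes were GeneID:107825910 at a ratio of 1.05, GeneID:107804933 at 1.12 and GeneID:107766572 at 1.24. The 4 uneven genes were GeneID:107771051 at 3.39, GeneID:107759714 at 3.99, GeneID:107777658 at 4.13 and GeneID:107827937 at 4.25. No gene of the 7 lay between 1.24 and 3.39. For comparison, 7125 annotated genes had a mean in the range of the 7 genes (1.62 to 10.8 FPKM) and at least 0.5 FPKM in each *ATG5*-silenced library, and their median ratio was 1.29. They were matched by this range alone, and the median of their means, 3.74 FPKM, was above that of the 7 genes, 1.84 FPKM. A ratio above 2 was found in 6.62% of these genes, whatever their level in WT, and in 4 of the 7 genes. The ratio uses values that also served to choose the 7 genes, so this contrast describes the chosen set and was not tested.

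Of the genes in that range, 2.99% had a ratio as low as that of GeneID:107825910. Its mean of 10.8 FPKM was the upper end of the range, whose median was 3.74 FPKM. It was thus compared mostly with genes of lower level, and genes of its own level alone were not compared. The ratios of GeneID:107804933 and GeneID:107766572 lay at 15.5% and 40.7% of these genes. Those of the 4 uneven genes lay between 98.9% and 99.5%. The 3 even genes were all listed at 0 in the 6 other libraries, and of the 4 uneven genes GeneID:107759714 alone was. *ATG5*-silenced replicate 1 was the lowest library for 4 of the 7 genes, and for 47.4% of the genes of that level.

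**Figure D2:**
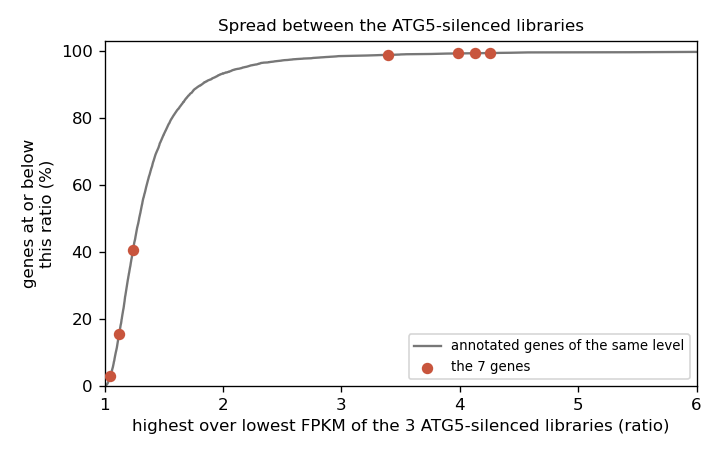
Share of annotated genes (vertical axis, in percent) at or below each ratio of the highest to the lowest FPKM of the 3 ATG5-silenced libraries (horizontal axis, shown from 1 to 6), for 7125 genes of the same level as a line and for the 7 genes as points. The 3 even genes lie at ratios of 1.05 to 1.24 and the 4 uneven genes at 3.39 to 4.25, beyond the bend of the line.

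The 7 genes were the upper end of a larger number of genes with traces in *ATG5*-silenced pollen. At most 0.1 FPKM was listed in each WT and *ATG2*-silenced library for 36533 annotated genes. Of these silent genes, 29435 were listed at 0 in each *ATG5*-silenced library too, 1321 were above 0 FPKM in each and 109 had at least 0.1 FPKM in each. In at least 1 *ATG5*-silenced library 89 of them reached 0.5 FPKM, in at least 2 libraries 17, and in all 3 the 7 genes. Single *ATG5*-silenced replicates 1, 2 and 3 held 36, 38 and 39 such genes, so most of what passed 0.5 FPKM in a library did not do so in the others.

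Among genes listed at 0 in all 6 other libraries, 77 were above 0 FPKM in each *ATG5*-silenced library. A gap followed the 4 that belong to the 7 genes: the lowest *ATG5*-silenced value of GeneID:107766572 was 1.45 FPKM, whereas the next gene in this order, GeneID:107805488, stood at 0.33, 0.91 and 0.65 FPKM. The 3 genes with traces elsewhere lay closer to the limits. Just inside the limit of 0.5 FPKM, the lowest *ATG5*-silenced value was 0.63 FPKM in GeneID:107827937, 0.72 FPKM in GeneID:107777658 and 0.82 FPKM in GeneID:107771051.

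Just outside that limit, it was 0.46 FPKM in GeneID:107807866, 0.45 FPKM in GeneID:107808856, 0.41 FPKM in GeneID:107831951, 0.38 FPKM in GeneID:107798856 and 0.36 FPKM in GeneID:107761524. Just outside the limit of 0.1 FPKM was GeneID:107763708, with 0.68, 0.59 and 0.60 FPKM in *ATG5*-silenced pollen and 0.16 FPKM in WT replicate 2, its highest other value. At a limit of 0.2 FPKM for the 6 libraries, 20 genes including the 7 would be counted.

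**Figure D3:**
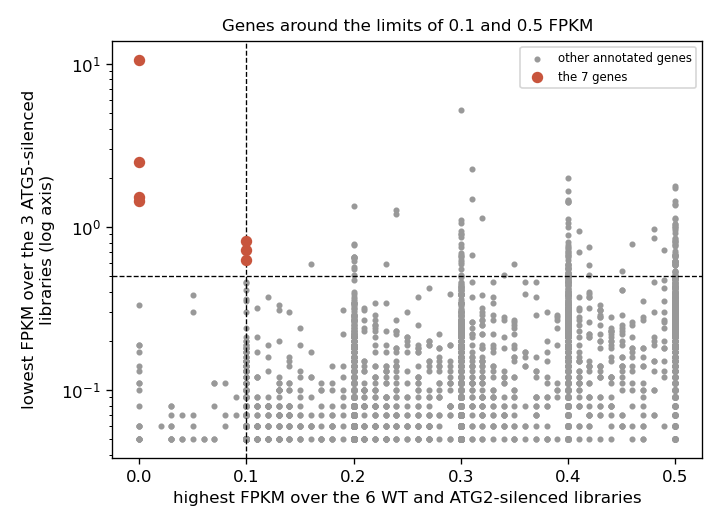
Annotated genes by their highest FPKM over the 6 WT and ATG2-silenced libraries (horizontal axis, shown up to 0.5) and their lowest FPKM over the 3 ATG5-silenced libraries (vertical log axis, shown from 0.05), with dashed lines at the limits of 0.1 and 0.5 FPKM. The 4 genes listed at 0 elsewhere stand at 1.45 FPKM or higher, the other 3 of the 7 genes sit on the 0.1 line, and the vertical stripes come from tables with 1 decimal.

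With the genotypes exchanged, the same limits gave similar numbers of annotated genes for *ATG2*-silenced pollen. There, 6 annotated genes were on in *ATG2*-silenced pollen alone, with means of 0.667 to 5.87 FPKM, and no annotated gene was on in WT alone. In the other direction, 16 annotated genes were off in *ATG5*-silenced pollen alone, 2 in *ATG2*-silenced pollen alone and none in WT alone. Between the silenced genotypes, genes that were on in 1 of them alone were thus about equally many, 7 and 6, and genes that were off were 16 and 2. Of all annotated genes, 0.0101% and 0.00868% were on, and 0.0232% and 0.00289% off, in *ATG5*- and *ATG2*-silenced pollen alone. The limits were applied to FPKM as deposited, which ran lower in *ATG5*-silenced libraries (scaling factors 0.751 to 0.791) than in *ATG2*-silenced ones (1.06 to 1.11). Values of *ATG2*-silenced pollen also had 1 decimal only. The limits were thus not equally strict for both genotypes, and neither difference was tested.

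Transcripts outside the annotation showed another picture under the same limits. Of 7686 unannotated transcripts, 143 (1.86%) were on in *ATG5*-silenced pollen alone, 6 in *ATG2*-silenced pollen alone and 3 in WT alone. Their means in *ATG5*-silenced pollen ran from 0.957 to 693 FPKM with a median of 4.11 FPKM, against a median of 1.84 FPKM for the 7 annotated genes. Of the 143, 137 were listed at 0 in all 6 other libraries, as were 4 of the 7 annotated genes. The median ratio of the highest to the lowest *ATG5*-silenced library was 2.79 in the 143 and 3.39 in the 7 genes, of which 3 lay at 1.24 or below. These comparisons of chosen sets carry no test, and how the authors assembled the unannotated transcripts is not given in the sources used here.

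**Figure D4:**
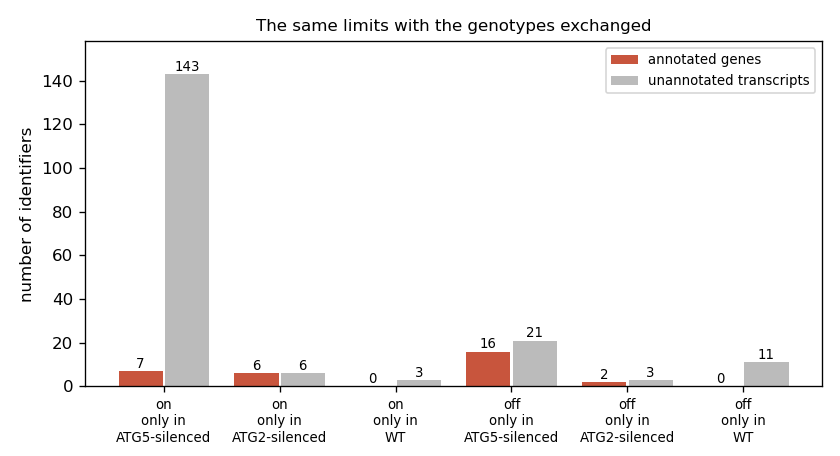
Number of identifiers (vertical axis) that met the limits of 0.1 and 0.5 FPKM with each genotype, or each pair of genotypes, in the place of ATG5-silenced pollen, for annotated genes and unannotated transcripts. The 7 genes are the first bar, beside 143 unannotated transcripts on in ATG5-silenced pollen alone, and 16 annotated genes were off in ATG5-silenced pollen alone.

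The genes next to the 7 were looked at because their levels had no part in the choice. In the RefSeq table the 4 genes with an entry have 8 nearest entries, none of which is itself one of the 7 genes. The order is that of the K326 assembly and can differ from the genome the reads were mapped to. FPKM values were at hand for 5 of the 8, and 3 of these passed the filter of at least 0.5 FPKM in at least 3 libraries and were tested. limma was fitted to log2 values of all 27836 genes that passed it, after scaling each library and adding 0.5 FPKM, with p-values adjusted by Benjamini-Hochberg over all of them. To be called, a gene had to differ by a factor of more than 2 in either direction with an adjusted p below 0.05. In *ATG5*-silenced against WT pollen, 14.6% of all tested genes were called higher and 7.75% lower, and 8.39% and 7.44% of the 20880 annotated ones. Which direction held more calls depended on the scaling: with FPKM as deposited 10.3% of all tested genes were called higher and 14.3% lower, and after rescaling to equal totals 11.1% and 13%. Against *ATG2*-silenced pollen the shares in the scaled fit were 14.3% and 9.66%.

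GeneID:107780981, the protein-coding entry before GeneID:107777658, was the neighbour that was called. It stood at 5.45, 5.72 and 5.60 FPKM in WT, at 5.7, 6.0 and 5.8 FPKM in *ATG2*-silenced pollen and at 23.25, 22.92 and 17.11 FPKM in *ATG5*-silenced pollen. The *ATG5*-silenced libraries were thus far above the other 6, which lay within a narrow range. Its *ATG5*-silenced mean was 21.1 ± 3.45 FPKM and its WT mean 5.59 ± 0.135 FPKM (SD, n = 3 libraries). After scaling, this was a rise of 2.17 on the log2 scale (limma, standard error 0.13, adjusted p = 2.72e-06). Against *ATG2*-silenced pollen the log2 change was 2.24 (limma, standard error 0.13, adjusted p = 2.36e-06). Both comparisons use the same *ATG5*-silenced libraries. GeneID:107780981 differs from the 7 genes in that it was well transcribed in all 9 libraries. The order of the *ATG5*-silenced libraries was not the same in both neighbours, since replicate 2 was the lowest for GeneID:107777658 at 0.72 FPKM and stood at 22.92 FPKM, close to the highest, for GeneID:107780981. Whether reads of one gene were counted for the other was not tested.

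The entry after GeneID:107777658, the protein-coding gene GeneID:107791368, did not follow. It stood at 15.06, 14.24 and 14.60 FPKM in WT, at 14.4, 14.2 and 13.8 FPKM in *ATG2*-silenced pollen and at 12.36, 14.57 and 15.92 FPKM in *ATG5*-silenced pollen, with overlapping ranges. Its log2 change against WT was 0.32 after scaling (limma, adjusted p = 0.0174, below the fold limit) and -0.04 with FPKM as deposited (limma, adjusted p = 0.732). The entry after the lncRNA gene GeneID:107771051, the protein-coding gene GeneID:107771052, stood at 1.41, 1.13 and 1.60 FPKM in WT and at 0.84, 0.51 and 0.58 FPKM in *ATG5*-silenced pollen. In FPKM as deposited these ranges did not overlap, and the *ATG2*-silenced libraries, at 0.9, 0.9 and 1.4 FPKM, lay above the *ATG5*-silenced ones and overlapped the WT. After scaling, the log2 change of GeneID:107771052 against *ATG2*-silenced pollen was -0.14 (limma, standard error 0.19, adjusted p = 0.546). Its log2 change against WT was -0.50 (limma, standard error 0.19, adjusted p = 0.0526), which missed the adjusted p and the fold limit, and -0.72 with FPKM as deposited (limma, adjusted p = 0.00978).

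The remaining neighbours with values were close to silent. GeneID:107826228, the entry before GeneID:107804933, was listed at 0 in all 9 libraries. GeneID:107827933, the entry after GeneID:107827937, was listed at 0 in all but WT replicate 2, at 0.02 FPKM. GeneID:107804933, at 1.53 to 1.72 FPKM in *ATG5*-silenced pollen, thus followed in the K326 order a gene with no listed transcript there. The entry after GeneID:107804933 had no FPKM values.

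**Figure D5:**
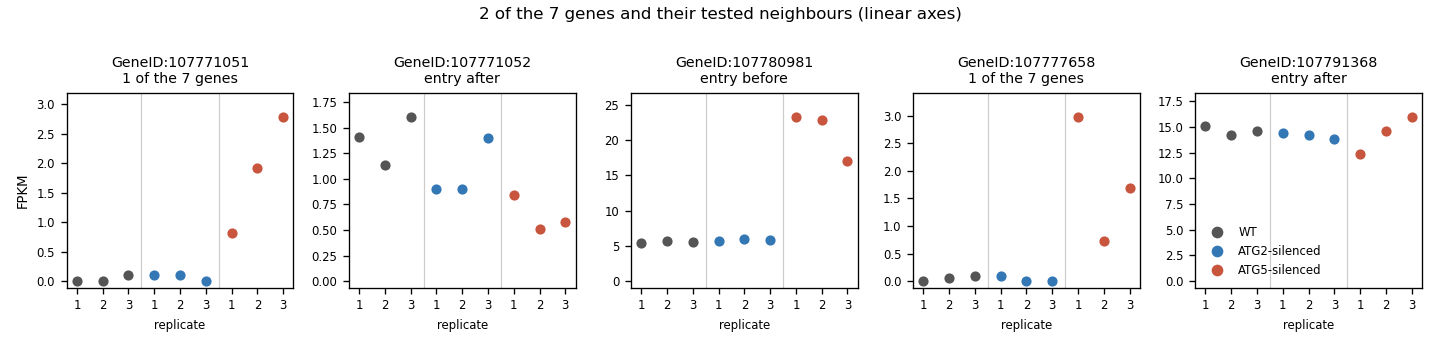
FPKM as deposited (linear vertical axes, own scale for each gene) in the 9 libraries for GeneID:107771051 and GeneID:107777658 of the 7 genes and for their tested neighbours, with 1 point per library. GeneID:107780981 stands at 17.11 to 23.25 FPKM in ATG5-silenced pollen and at 5.45 to 6.0 FPKM elsewhere, while GeneID:107791368 overlaps between genotypes.

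Markers of the tissue were checked by name. All 7 pollen genes found, among them *ntp101*, *ntp201*, *ntp805* and the profilin genes *PRO1* to *PRO3*, were at 270.72 FPKM or more in each library. Their sum was higher in *ATG5*-silenced pollen, although the profilin genes and the pectin methylesterase gene *PPME1* were each lower in all 3 *ATG5*-silenced libraries than in any other. It was 41114 to 45094 FPKM in *ATG5*-silenced pollen, 27106 to 28925 FPKM in WT and 29550 to 30673 FPKM in *ATG2*-silenced pollen. The 7 green tissue genes found summed to 0.13 to 0.43 FPKM in *ATG5*-silenced pollen, 1.4 to 3.02 FPKM in WT and 0.4 to 0.9 FPKM in *ATG2*-silenced pollen, and *CAB21*, the highest of them in WT, did not exceed 0.11 FPKM in *ATG5*-silenced pollen. The 4 root genes found summed to at most 0.21 FPKM there and to at most 0.5 FPKM elsewhere. The green tissue and root genes found were thus at or near 0 in the libraries in which the 7 genes were on. Some symbols of both lists, *rbcS* among them, yielded no gene with values, so RNA of these tissues was checked in part only. No gene was found for the anther wall and tapetum list, so RNA of these cells was not tested. Of the generative cell and division list, 3 genes were found, which summed to 16.92 to 25.27 FPKM in *ATG5*-silenced pollen, 25.65 to 30.60 FPKM in WT and 24.7 to 41.5 FPKM in *ATG2*-silenced pollen. As deposited, the *ATG5*-silenced sums lay below those of WT and overlapped those of *ATG2*-silenced pollen. The histone gene *H3* (GeneID:107795199) was at 10.84 to 18.57 FPKM in *ATG5*-silenced pollen and at 22 FPKM or more in each other library. These values were not scaled, and FPKM as deposited ran lower in *ATG5*-silenced libraries. Whether *H3* or the sum differs after scaling was not tested. Both genes of the cell cycle kinase *cdc2* were higher in each *ATG5*-silenced library than in any other, GeneID:107785170 at 4.80 to 6.23 against 0.48 to 1.6 FPKM and GeneID:107799146 at 1.28 to 1.64 against 0.68 to 1.1 FPKM. The part of such differences in the levels of the 7 genes was not tested.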

How the data were processed

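RNA of bicellular pollen was sequenced from WT, *ATG2*-silenced and *ATG5*-silenced plants, 3 libraries each. The authors cleaned the reads with SOAPnuke, mapped them to the Ntab-TN90 genome and transcripts with HISAT2 and Bowtie 2, and deposited FPKM values per gene from RSEM, in versions not given in the sources used here. The tables hold no counts, so the depth of single libraries is unknown beyond a minimum number of read pairs that the study states, and the authors' DESeq2 test was not repeated. A single line without a gene or value was left out of each table.

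The 7 genes and all lists were chosen with earlier results of these data known. The limits were applied to FPKM as deposited. For neighbours, libraries were divided by median-of-ratios factors over 14192 genes above 1 FPKM in all libraries (0.751 to 0.791 in *ATG5*-silenced pollen, 0.978 to 1.11 elsewhere), 0.5 was added and log2 taken. limma 3.58.1 in R 4.3.3 (lmFit, eBayes with trend and robust, statmod 1.5.0) was fitted once to 9 libraries, two-sided. The fit was also run on simulated data that held no difference in scale between libraries, so that run does not bear on the choice of scaling. Each p-value sets a difference between genotypes against the spread between libraries within genotypes. Whether that spread covers variation between transformed lines is unknown, because their number is not given in the sources used here. Plots were drawn with Python 3.11.15 and matplotlib 3.10.9.

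Values were to be given for the 25 genes of highest level, which covers all 7 genes, for up to 5 genes on each side of each limit, for neighbours, and for *ATG2* and *ATG5*. Of the 5 genes outside the 0.1 FPKM limit, 1 is given, because many tie at 0.2 FPKM. Alternatives were other limits, scaled or rounded values, other scalings, pseudocounts and filters, a replicate block and leaving out each library. Planned comparisons of promoter words, protein lengths, closest protein relatives and gene families were not run, since no sequences or gene names were at hand for the 7 genes.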

Additional observations from a re-analysis of the deposited data

How the results depend on the processing

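The number of genes depends on the limits. It was 4 at 0.05 FPKM and 20 at 0.2 FPKM for the silent libraries, and 16 at 0.25 FPKM and 4 at 1 FPKM for *ATG5*-silenced libraries. The 4 genes listed at 0 elsewhere are those that remain at 0.05 FPKM and at 1 FPKM. With scaled FPKM it was 8, of which 6 are among the 7 genes: GeneID:107827937 was lost, at 0.102 FPKM in WT replicate 1, and GeneID:107807866 and GeneID:107808856 were added. Rounding all libraries to 1 decimal also gave 8, all 7 genes included. Leaving out single libraries gave 7 to 13 genes, always with the 7, and the 13 came without *ATG5*-silenced replicate 1.

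Over all tested genes, 4058 calls in *ATG5*-silenced against WT pollen were upward and 2156 downward. These were 2871 and 3973 with FPKM as deposited and 3099 and 3616 rescaled to equal totals, where the median log2 change was -0.30 and -0.25 against -0.03, and 3393 and 2836 with quantile normalization (median -0.15). Leaving out single libraries gave 3586 to 4109 and 1944 to 2262. Of the neighbours, 1 was called higher in each of the 17 alternatives run, GeneID:107780981, with a log2 change of 1.81 to 2.34 (limma, adjusted p 2.30e-06 to 3.60e-05). The adjusted p of GeneID:107771052 ranged from 0.00978 to 0.153 and that of GeneID:107791368 from 0.0057 to 0.816. Taking the nearest entries with FPKM values instead, chosen after the data were seen, also gave 1. With the replicate number as a block, 4052 and 2151 genes and 1 neighbour were called. Equal numbers gave no sign of pairing, but with 3 libraries per genotype this check cannot settle it. The deviations of same-numbered *ATG5*-silenced and WT libraries correlated at 0.0038 to 0.037. For *ATG5*- and *ATG2*-silenced libraries of equal number the range was -0.019 to 0.053, and for *ATG2*-silenced and WT ones -0.044 to -0.01. Libraries of different number correlated at -0.11 to 0.069.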

Other observations

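Several annotated genes missed the limits because of 1 library, and some of them stood higher than most of the 7 genes. They were chosen after their values were seen. GeneID:107832704 was listed at 0 in *ATG5*-silenced replicate 1 and stood at 15.57 and 16.36 FPKM in replicates 2 and 3, and at 0 in the 6 other libraries. GeneID:107829092 was likewise listed at 0 in *ATG5*-silenced replicate 1, with 5.28 and 17.03 FPKM in replicates 2 and 3. GeneID:107777726 followed the same pattern, at 0, 2.16 and 5.13 FPKM. All 3 genes would join the 7 without *ATG5*-silenced replicate 1.

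GeneID:107832474 stood at 10.77, 19.86 and 21.75 FPKM in *ATG5*-silenced pollen and was listed at 0 in all *ATG2*-silenced libraries and in WT replicates 1 and 3, but at 6.52 FPKM in WT replicate 2. GeneID:107801635 stood at 1.79, 3.96 and 4.27 FPKM in *ATG5*-silenced pollen, at 0.5 FPKM in *ATG2*-silenced replicate 1 and at 0 in the other 5 libraries.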
